A study of Mus musculus with 12 samples.

Results

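The mitotic genes described here are 10 genes of cell division: the cyclins Ccnb1 and Ccnb2, the kinases Plk1, Aurka, Aurkb and Bub1, the activator of the anaphase-promoting complex Cdc20, the spindle protein gene Hmmr, the topoisomerase gene Top2a and the proliferation marker Mki67. They were taken by name from a table of 28999 genes, and all 10 were found and passed the filter on low counts that 16319 genes passed. The libraries were made from mouse bone marrow cells labelled LT-HSCs, that is long-term haematopoietic stem cells, the rare cells that keep blood formation going through life. There were 4 groups of 3 libraries: wild-type mice without treatment, mice labelled Trim47-/- (also labelled Trim47 mutant) without treatment, and both genotypes treated for 10 days with 5-fluorouracil (5-FU). 5-FU is a chemotherapy drug that kills dividing cells, and Trim47 encodes a protein of the tripartite-motif ubiquitin ligase family. The strain, age and sex of the mice, the part of Trim47 that is altered, the cell types in which it is lost, the dose of 5-FU and the surface markers used to sort the cells are not named in the sources used here.

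A cell enters mitosis when cyclin B, the product of Ccnb1 and Ccnb2, switches on its partner kinase CDK1, helped by PLK1 and Aurora A. Aurora B and BUB1 then watch over the attachment of chromosomes to the spindle, and CDC20 directs the anaphase-promoting complex, which destroys cyclin B and lets the sister chromatids part. Messenger RNAs of these genes are made mainly in the G2 phase and in mitosis, so that in a tissue their level is known to rise and fall with the share of dividing cells. LT-HSCs are mostly quiescent, and loss of dividing blood cells after 5-FU is known to draw them into division for a time. In RNA from whole populations of cells, fewer dividing cells and less RNA per dividing cell cannot be told apart, here or in any result below.

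Promoters of many such genes share 2 short elements, the CHR, where the DREAM and B-MYB complexes bind, and the CCAAT box, bound by NF-Y. The RefSeq promoter table (GRCm38.p6, windows from 250 bases before to 50 bases after each gene's start) held 9 of the 10 genes, all but Aurkb. A CHR was searched for as TTTGAA or TTCGAA on both strands, and a CCAAT box as CCAAT on both strands, where it reads ATTGG on the opposite one. CHR letters stood in 8 of the 9 windows against 19.2% of 32851 windows in the table, and CCAAT letters in 9 of 9 against 37.4%. Both were present in 8 of 9, against 7.53% of all windows. No CHR match overlapped a CCAAT match in these genes. A match of letters describes the sequence and does not show that a factor binds there. The stretches below show some of the matches, in capitals, for 5 of these genes.
Plk1: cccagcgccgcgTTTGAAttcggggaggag
Hmmr: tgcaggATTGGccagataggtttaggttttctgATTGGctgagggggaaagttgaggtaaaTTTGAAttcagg
Ccnb2: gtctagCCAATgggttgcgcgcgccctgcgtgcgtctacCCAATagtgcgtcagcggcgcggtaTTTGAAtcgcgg
Ccnb1: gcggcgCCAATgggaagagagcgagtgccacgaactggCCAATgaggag
Mki67: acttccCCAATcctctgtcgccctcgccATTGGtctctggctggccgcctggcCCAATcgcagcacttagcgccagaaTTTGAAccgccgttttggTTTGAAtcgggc
The Plk1 stretch (chr7:122159453-122159482, plus strand) begins 19 bases after the start site and holds a CHR at 31 to 36, while the 1 CCAAT box of its window lies outside the stretch, at -14 to -10. The Hmmr stretch (chr11:40733418-40733490, minus strand) has a CHR at 9 to 14 and 2 of the window's 5 CCAAT boxes, all of them on the opposite strand. In Ccnb2 (chr9:70421539-70421614, minus strand) a CHR lies at 5 to 10 and another, outside the stretch, at -167 to -162, and 3 CCAAT boxes, of which the stretch shows 2, are spaced 33 bases apart. The Ccnb1 stretch (chr13:100786543-100786591, minus strand) has 2 CCAAT boxes 32 bases apart, and no CHR letters stood in the window of Ccnb1. In Mki67 (chr7:135716466-135716573, minus strand) both CHR matches lie before the start site, at -116 and -98.

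**Figure D1:**
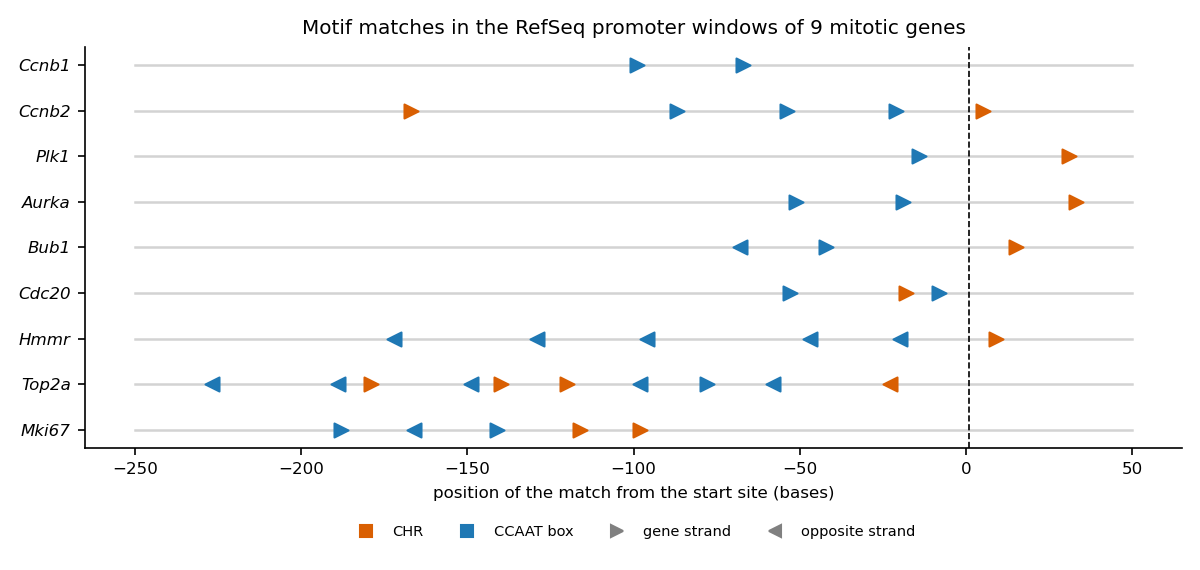
Positions of CHR (orange) and CCAAT (blue) letter matches in the promoter windows of 9 genes, in bases from the start site (dashed line), with arrowheads pointing right for the gene's strand and left for the opposite strand. A CHR match is present in 8 of the 9 windows, and Ccnb1 shows CCAAT matches alone.

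Counts are per gene, over loci of GRCm38 that were the same in the deposited table and in GENCODE M21. Ccnb1 (ENSMUSG00000041431) lies at chr13:100778650-100786570 on the minus strand, with 9 exons in its principal transcript. Ccnb2 (ENSMUSG00000032218) lies at chr9:70407692-70421547 on the minus strand, with 9 exons in its principal transcript. Plk1 (ENSMUSG00000030867) lies at chr7:122159439-122169873 on the plus strand, with 10 exons in its principal transcript. Aurka (ENSMUSG00000027496) lies at chr2:172356190-172370535 on the minus strand, with 9 exons in its principal transcript. Aurkb (ENSMUSG00000020897) lies at chr11:69045647-69051664 on the plus strand, with 8 exons in its principal transcript. Bub1 (ENSMUSG00000027379) lies at chr2:127801122-127831865 on the minus strand, with 25 exons in its principal transcript. Cdc20 (ENSMUSG00000006398) lies at chr4:118432901-118437352 on the minus strand, with 10 exons in its principal transcript. Hmmr (ENSMUSG00000020330) lies at chr11:40701395-40733422 on the minus strand, with 18 exons in its principal transcript. Top2a (ENSMUSG00000020914) lies at chr11:98992943-99024189 on the minus strand, with 36 exons in its principal transcript. Mki67 (ENSMUSG00000031004) lies at chr7:135689784-135716361 on the minus strand, with 14 exons in its principal transcript. 2 short noncoding genes lie within Top2a, and Plk1 and Mki67 each have an opposite-strand gene model, none of which had more than 6 counts in a library. The 3′ ends of Cdc20 and its opposite-strand neighbour Elovl1 (270 to 631 counts) share 53 bases. The strand setting of the counting is not given, so reads of these 53 bases cannot be assigned with certainty. Ccnb1 has a processed pseudogene, Ccnb1-ps, that held 231 to 443 counts, near the 389 to 643 counts of Ccnb1 itself, so reads could be split between the near-identical copies and the Ccnb1 values are less certain than the others. The pseudogene of Ccnb2, Ccnb2-ps, held 0 to 5 counts.

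Library totals ran from 13919649 to 20703198 counts, with a spread of at most 0.388% within a group and up to 1.49-fold between groups. Levels are given as CPM, counts scaled to a TMM-adjusted library total, and error as SD over 3 libraries. The 10 genes held 389 to 12590 counts in a library. Over the 40 pairs of a gene and a group, the coefficient of variation between libraries ran from 0.64% to 9.36%, and the median chi-square per degree of freedom was 0.965 against 0.693 for counting noise alone. The labels name no separate mice for the libraries, so p-values measure only the spread between libraries, which may be technical. Trim47 itself stood at 23.8 to 24.7 CPM without treatment in wild type, against 16.6 to 23.7 CPM in Trim47-/-, and at 33.3 to 38.2 and 10.1 to 12.2 CPM after 5-FU. Its RNA was present in every library, and since the altered part of the gene is not given, these levels do not settle the genotype, and group names follow the labels.

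The LT-HSC label was set against marker genes. All 12 LT-HSC markers were detected, with a summed level of 986.4 to 1092 CPM in untreated wild type, 1134 to 1240.0 CPM in untreated Trim47-/-, 1016 to 1176 CPM in wild type after 5-FU and 613 to 693 CPM in Trim47-/- after 5-FU. Genes of other blood cells were present too. In the same order of groups, 10 neutrophil genes summed to 3332 to 3467, 3262 to 3319, 4085 to 4158 and 6501 to 6884 CPM, and 8 monocyte and macrophage genes to 616 to 623, 443 to 473, 574 to 588 and 1007 to 1039 CPM. The 10 erythroid genes summed to 295 to 302, 318 to 324, 542 to 555 and 549.7 to 559.6 CPM. The 8 megakaryocyte and platelet genes summed to 158 to 159.8, 117 to 119.8, 308 to 318 and 242 to 245 CPM. The 8 B and plasma cell genes summed to 658 to 666, 447 to 644, 241 to 289 and 208 to 244 CPM, and the 6 genes of multipotent and early lymphoid progenitors to 1989 to 2069, 2422 to 2433, 2136 to 2153 and 1851 to 1881 CPM. The 8 T and NK cell genes summed to 86.7 to 90.1, 89.2 to 92.4, 134 to 139 and 129.8 to 132 CPM, and the 7 endothelial and stromal genes to 134 to 139, 127 to 135, 160.0 to 160.9 and 130.0 to 138 CPM. The T-cell genes Cd3d, Cd3e, Cd3g and Cd8a were under 1 CPM in every group. After 5-FU, 11 of 12 LT-HSC markers, 7 of the 7 tested megakaryocyte genes and 5 of 8 B and plasma cell genes were lower in Trim47-/- than in wild type and 0 of them higher, while 8 of 8 monocyte and macrophage genes and 9 of 10 neutrophil genes were higher. Of the 10 erythroid genes, 5 were lower and 1 higher in that comparison, where 27.2% of all genes were higher and 27.6% lower. In wild type, 6 of 7 megakaryocyte genes, 9 of 10 erythroid genes and 9 of 10 neutrophil genes rose after 5-FU. There 7 of 8 B and plasma cell genes fell, and of all genes 25.2% rose and 25.4% fell. These cell types divide to different extents, and their part in the differences of mitotic genes was not tested.

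All 10 mitotic genes were expressed in every library. To compare genes with each other, levels were set per kb of the principal transcript. Top2a was highest in each group, at 120.0 ± 2.27 CPM per kb in untreated wild type, 117 ± 1.15 in untreated Trim47-/-, 126 ± 1.76 in wild type after 5-FU and 125 ± 2.25 in Trim47-/- after 5-FU. In untreated wild type it was followed by Mki67 (70.5 ± 0.933 CPM per kb), Cdc20 (49.5 ± 1.92), Ccnb2 (37.7 ± 1.45), Aurkb (32.7 ± 2.12) and Bub1 (19.9 ± 0.269). Aurka (18.4 ± 1.57) and Plk1 (18.2 ± 0.703) overlapped, as did Ccnb1 (11.4 ± 0.82) and Hmmr (11 ± 0.138), which stood lowest. The order changed at its top in wild type after 5-FU, where Cdc20 (64.0 ± 0.787 CPM per kb) and Ccnb2 (62.8 ± 0.981), which overlapped, both stood above Mki67 (53.6 ± 0.523). In Trim47-/- after 5-FU, Mki67 was again next to Top2a, at 66.2 ± 0.424 CPM per kb, with Ccnb2 at 58.7 ± 0.682 and Cdc20 at 56.4 ± 1.49.

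**Figure D2:**
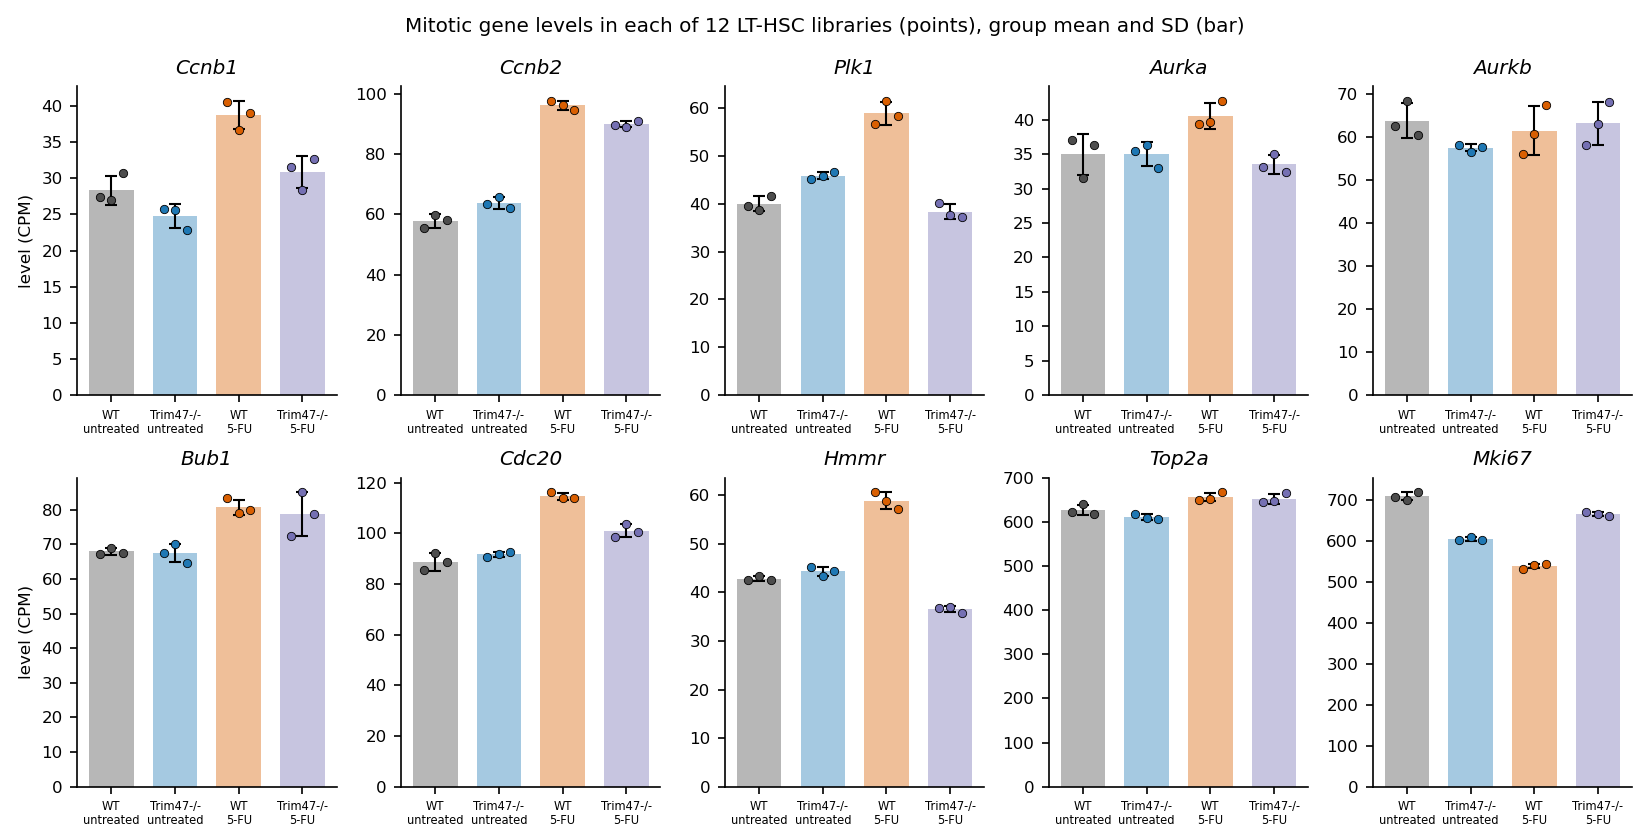
Level of each gene in CPM on its own linear scale from 0, with 3 libraries per group as points, the group mean as a bar and its SD as an error line. Plk1 and Hmmr are highest in wild type after 5-FU and, by their means, lowest in Trim47-/- after 5-FU, where Hmmr stands at 35.8 to 36.9 CPM, and Mki67 is lowest in wild type after 5-FU, at 533 to 543 CPM.

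In wild type, 10 days of 5-FU went with higher levels of 8 of the 10 mitotic genes and a lower level of Mki67. Of the 10 genes, 8 rose, 1 fell and 1 did not pass at an adjusted p under 0.05 in edgeR's quasi-likelihood test, against 50.6% of all tested genes called, 25.2% higher and 25.4% lower. The median log2 change was 0.31 over the 10 genes and 0.01 over all genes tested. The ranges of the groups did not overlap for 9 of the 10, against 58.9% of all genes. Against a change of at least 1.2-fold, 6 passed (Ccnb1, Ccnb2, Plk1, Cdc20, Hmmr and Mki67), where 24.9% of all genes did.

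In Trim47-/-, 5-FU went with rises that were smaller for the cyclin Ccnb2 and for Cdc20, and with falls of Plk1 and Hmmr. Here 6 genes rose, 2 fell and 2 did not pass, against 60.5% of all genes called, 29.6% higher and 30.8% lower. The median log2 change was 0.14 over the 10 and -0.005 over all genes. Ranges did not overlap for 9 of the 10 genes, against 66.6% of all genes. Ccnb2 alone passed against a 1.2-fold change, where 36.0% of all genes did.

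The difference between these responses was tested as an interaction, the 5-FU response in Trim47-/- minus that in wild type. Of the 10 genes, 5 had a lower response in Trim47-/- (Plk1, Hmmr, Aurka, Ccnb2 and Cdc20), 1 a higher one (Mki67), and 4 did not pass, against 54.9% of all genes called, 26.4% higher and 28.5% lower. The median was -0.18 over the 10 and -0.03 over all genes. Plk1, Hmmr and Mki67 also passed against a 1.2-fold change, where 37.8% of all genes did. With 6 of 10 called in either direction, the mitotic genes stood near the share of all genes. The 5 lower of 10 stood above the share of lower calls, though the call of Aurka was lost in 9 alternatives.

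Between genotypes, 3 of the 10 mitotic genes differed in untreated mice, near the share of all genes. Trim47-/- was higher than wild type in 2 genes (Plk1 and Ccnb2), lower in 1 (Mki67) and not different by the test in 7, against 33% of all genes called, 17.6% higher and 15.4% lower. The median was -0.005 over the 10 genes and 0.03 over all. 0 passed against a 1.2-fold change, where 9.15% of all genes did, and the ranges of 5 of the 10 did not overlap, against 47.9% of all genes. After 5-FU, Trim47-/- was lower than wild type in 6 genes (Hmmr, Plk1, Ccnb1, Aurka, Cdc20 and Ccnb2), higher in Mki67 and not different by the test in 3. Of all genes 54.7% were called, 27.2% higher and 27.6% lower, where 7 of the 10 members were called in either direction. The 6 lower of 10 stood above the share of lower calls, though the call of Ccnb2 was lost in 8 alternatives. The median was -0.14 over the 10 and near 0 over all, and ranges did not overlap for 7 of the 10, against 61.3% of all genes. Mki67, Hmmr and Plk1 passed against a 1.2-fold change, where 28.5% of all genes did. The comparisons share groups of libraries, so the rise in wild type and the lower level of Trim47-/- after 5-FU rest on the same wild-type 5-FU libraries.

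**Figure D3:**
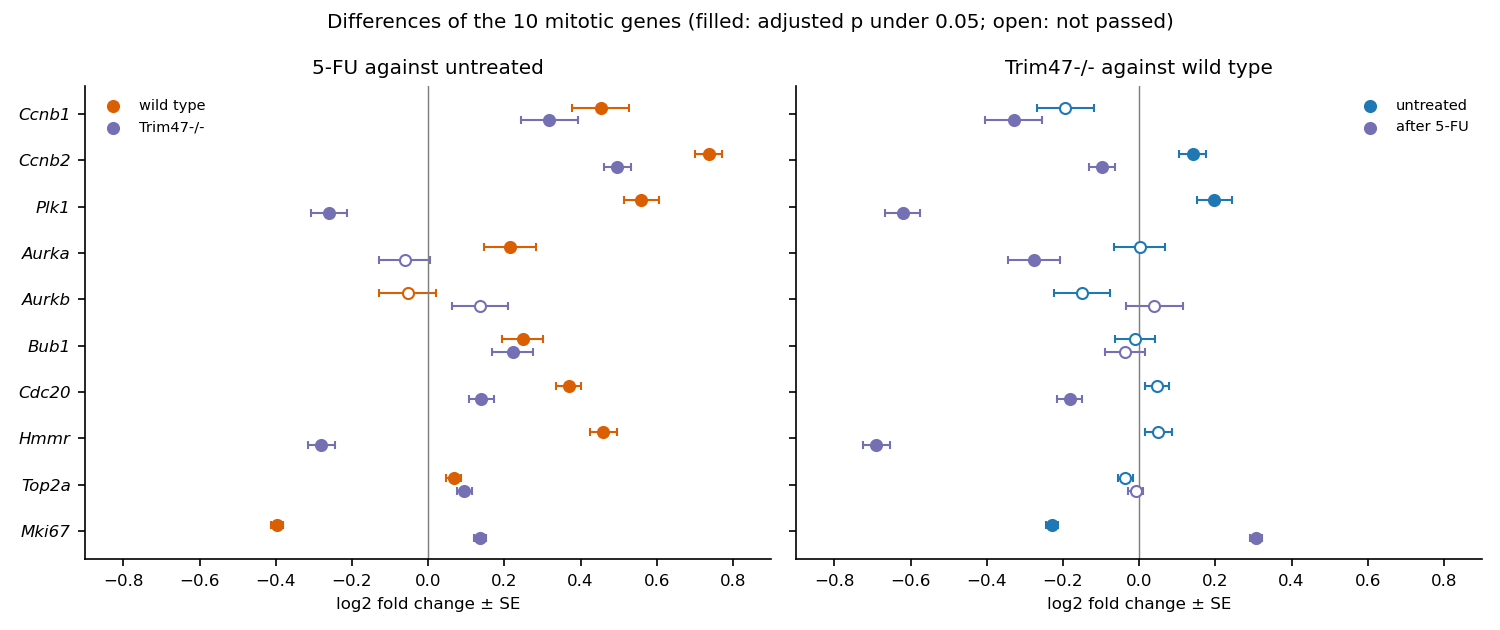
Log2 fold change and SE of each gene for 5-FU against untreated (left, wild type orange, Trim47-/- purple) and for Trim47-/- against wild type (right, untreated blue, after 5-FU purple), with filled points where the adjusted p was under 0.05. Plk1 and Hmmr rise in wild type and fall in Trim47-/-, and Mki67 does the reverse.

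Ccnb2, a B-type cyclin that drives entry into mitosis, had the largest rise of the 10 genes after 5-FU in both genotypes. Its level was 55.4, 59.8 and 58.0 CPM without treatment in wild type, against 63.4, 65.7 and 62.0 CPM in Trim47-/-. After 5-FU it was 97.6, 96.1 and 94.6 CPM in wild type against 89.7, 88.95 and 91.0 CPM in Trim47-/-. No ranges of the 4 groups overlapped. In wild type the rise was 0.74 (SE 0.0353, adjusted p = 1.46e-08) on the log2 scale, and in Trim47-/- 0.50 (SE 0.0349, adjusted p = 2.41e-07). The response was smaller in Trim47-/-, with an interaction of -0.24 (SE 0.0495, adjusted p = 0.00164). Between genotypes the difference turned with treatment, from 0.14 (SE 0.0353, adjusted p = 0.00983) untreated to -0.10 (SE 0.0348, adjusted p = 0.0338) after 5-FU. The untreated call was lost with the DESeq2 test (adjusted p = 0.0644) and with only the 6 libraries compared (0.073), and its adjusted p ranged from 0.00705 to 1 over the alternatives. The call after 5-FU was lost with the DESeq2 test (0.0833), without wild-type 5-FU replicate 1 (0.102) or 2 (0.0699), and without Trim47-/- 5-FU replicate 1 (0.0821), 2 (0.0995) or 3 (0.0521), in a range of 0.00999 to 1.

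Ccnb1, the other B-type cyclin, rose after 5-FU in both genotypes as well, at lower levels. It stood at 27.4, 27.0 and 30.7 CPM without treatment in wild type, against 25.8, 25.6 and 22.9 CPM in Trim47-/-. The levels after 5-FU were 40.6, 36.8 and 39.0 CPM in wild type against 31.6, 28.4 and 32.7 CPM in Trim47-/-. Wild type after 5-FU stood above every other library. The rise was 0.45 (SE 0.0745, adjusted p = 0.000361) in wild type and 0.32 (SE 0.0748, adjusted p = 0.00322) in Trim47-/-, and the responses did not differ by the test (log2 -0.14, SE 0.106, adjusted p = 0.304). Trim47-/- was lower than wild type after 5-FU, at log2 -0.33 (SE 0.0743, adjusted p = 0.00287), and the untreated difference of -0.19 (SE 0.0749) did not pass (adjusted p = 0.0697). Ccnb1-ps moved alongside, with a rise of 0.59 (SE 0.081, adjusted p = 9.48e-05) in wild type and 0.45 (SE 0.081, adjusted p = 0.000503) in Trim47-/-, and a genotype difference of -0.24 (SE 0.08, adjusted p = 0.0236) after 5-FU. Summed with its pseudogene, Ccnb1 had a mean of 45.7 CPM in untreated wild type, 40.9 CPM in untreated Trim47-/-, 64.9 CPM in wild type after 5-FU and 52.9 CPM in Trim47-/- after 5-FU, in the same order as Ccnb1 alone.

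Plk1, the polo-like kinase that helps to switch on cyclin B and to build the spindle, responded to 5-FU in opposite directions in the genotypes. In untreated wild type it stood at 39.6, 38.7 and 41.7 CPM, and in untreated Trim47-/- at 45.2, 45.7 and 46.6 CPM. After 5-FU it stood at 56.7, 61.5 and 58.4 CPM in wild type against 40.1, 37.5 and 37.2 CPM in Trim47-/-. Wild type after 5-FU was above all other libraries, and Trim47-/- after 5-FU overlapped untreated wild type. The change was 0.56 (SE 0.0461, adjusted p = 1.5e-06) in wild type and -0.26 (SE 0.0462, adjusted p = 0.000468) in Trim47-/-, and the interaction was -0.82 (SE 0.0653, adjusted p = 1.02e-06). Trim47-/- was 0.20 (SE 0.046, adjusted p = 0.00678) higher untreated and lower after 5-FU (-0.62, SE 0.0463, adjusted p = 5.99e-07), at 0.65 times the wild-type level.

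Aurka, the kinase of centrosomes and spindle poles, moved less. Untreated levels were 37.0, 31.5 and 36.4 CPM in wild type against 35.5, 36.4 and 33.04 CPM in Trim47-/-, and overlapped. After 5-FU they were 39.4, 39.7 and 42.8 CPM in wild type against 33.2, 35.0 and 32.4 CPM in Trim47-/-, and did not. The wild-type rise of 0.22 (SE 0.0671, adjusted p = 0.0192) was lost without untreated wild-type replicate 2 (adjusted p = 0.0742) or wild-type 5-FU replicate 3 (0.077), in a range of 0.0162 to 0.862 over the alternatives. In Trim47-/- the change of -0.06 (SE 0.0671) did not pass (adjusted p = 0.455). After 5-FU Trim47-/- was lower, at -0.28 (SE 0.0674, adjusted p = 0.00462). The interaction of -0.28 (SE 0.0949, adjusted p = 0.0279) was lost with the DESeq2 test (0.0525) and without untreated wild-type replicate 2 (0.0537), untreated Trim47-/- replicate 1 (0.0531) or 2 (0.0628), wild-type 5-FU replicate 3 (0.0691), or Trim47-/- 5-FU replicate 1 (0.0539) or 3 (0.0634), in a range of 0.0202 to 0.368.

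Aurkb and Bub1 are kinases that act where chromosomes meet the spindle, Aurkb in the chromosomal passenger complex and Bub1 in the spindle checkpoint. Aurkb stood at 62.5, 68.4 and 60.4 CPM without treatment in wild type, against 58.1, 56.5 and 57.7 CPM in Trim47-/-. After 5-FU the levels were 56.1, 60.7 and 67.5 CPM against 58.2, 63.1 and 68.1 CPM in that order. It had the widest spread between libraries of the 10 genes, up to 9.36%, and no comparison passed. Its change was -0.05 (SE 0.0738, adjusted p = 0.578) in wild type and 0.14 (SE 0.0735, adjusted p = 0.131) in Trim47-/-, and its untreated genotype difference was -0.15 (SE 0.0734, adjusted p = 0.142). With only the 6 libraries compared, the untreated difference passed (0.0391, in a range up to 1), and without wild-type 5-FU replicate 3 the interaction of 0.19 (SE 0.104, adjusted p = 0.145) did (0.038, in a range up to 0.689). Bub1 stood at 67.3, 69.0 and 67.6 CPM without treatment in wild type, against 67.6, 70.1 and 64.7 CPM in Trim47-/-. After 5-FU it stood at 83.2, 79.1 and 79.8 CPM in wild type against 72.4, 85.0 and 78.6 CPM in Trim47-/-. The genotypes overlapped in both states, and treated libraries were above untreated ones in both genotypes. Bub1 rose by 0.25 (SE 0.0534, adjusted p = 0.00232) in wild type and 0.22 (SE 0.0531, adjusted p = 0.00355) in Trim47-/-, and the interaction of -0.03 (SE 0.0753) did not pass (adjusted p = 0.798).

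Cdc20, the activator of the anaphase-promoting complex, rose in both genotypes, less in Trim47-/-. Untreated it stood at 85.4, 92.3 and 88.7 CPM in wild type against 90.7, 91.9 and 92.7 CPM in Trim47-/-, which overlapped. After 5-FU it stood at 116, 113.9 and 113.9 CPM in wild type against 98.7, 104 and 101 CPM in Trim47-/-, which did not. The rise was 0.37 (SE 0.0327, adjusted p = 2.71e-06) in wild type and 0.14 (SE 0.0326, adjusted p = 0.00302) in Trim47-/-, with an interaction of -0.23 (SE 0.0462, adjusted p = 0.00131). After 5-FU the genotype difference was -0.18 (SE 0.0326, adjusted p = 0.000595). Elovl1, which shares 53 bases with it, had mean levels of 24.7, 28.3, 33.1 and 43.8 CPM in untreated wild type, untreated Trim47-/-, treated wild type and treated Trim47-/-, and was thus highest in another group than Cdc20.

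Hmmr encodes a hyaluronan receptor that also binds microtubules and acts in spindle assembly. Its level was 42.5, 43.5 and 42.5 CPM without treatment in wild type, against 45.3, 43.4 and 44.4 CPM in Trim47-/-. After 5-FU it was 60.6, 58.9 and 57.3 CPM in wild type against 36.8, 36.9 and 35.8 CPM in Trim47-/-. All treated wild-type libraries were above, and all treated Trim47-/- libraries below, every untreated library. Hmmr rose by 0.46 (SE 0.0358, adjusted p = 8.87e-07) in wild type and fell by 0.28 (SE 0.0361, adjusted p = 3.88e-05) in Trim47-/-, an interaction of -0.74 (SE 0.0509, adjusted p = 3.07e-07). After 5-FU its level in Trim47-/- was 0.62 times that in wild type (log2 -0.69, SE 0.0362, adjusted p = 3.53e-08), and untreated the difference of 0.05 (SE 0.0358) did not pass (adjusted p = 0.389).

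Top2a, which untangles sister chromatids and has the highest level of the 10 per kb, changed least among those that rose. Its level was 622, 639.7 and 617 CPM without treatment in wild type, against 617, 609 and 606 CPM in Trim47-/-. After 5-FU it was 650.4, 651 and 667 CPM against 644, 647 and 666 CPM in that order. The genotypes overlapped in both states. The rise after 5-FU was 0.07 (SE 0.0196, adjusted p = 0.0136) in wild type and 0.10 (SE 0.0196, adjusted p = 0.0013) in Trim47-/-, and the interaction of 0.03 (SE 0.0277) did not pass (adjusted p = 0.42). In wild type the call was lost with the DESeq2 test (adjusted p = 0.0694), without untreated replicate 1 (0.0516) or 3 (0.0595) and without 5-FU replicate 3 (0.059), in a range of 0.00801 to 1 over the alternatives. The untreated genotype difference of -0.04 (SE 0.0196, adjusted p = 0.178) passed with only the 6 libraries compared (0.0444) and without wild-type 5-FU replicate 3 (0.0425), in a range up to 1.

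Mki67 encodes Ki-67, which coats mitotic chromosomes and is used to mark cells in cycle, and it moved against Plk1 and Hmmr. Untreated it stood at 708, 700.5 and 719 CPM in wild type against 603, 611 and 603 CPM in Trim47-/-. After 5-FU it stood at 533, 541 and 543 CPM in wild type against 670.1, 667 and 662 CPM in Trim47-/-. No ranges of the 4 groups overlapped. It fell by 0.40 (SE 0.0153, adjusted p = 2.46e-09) in wild type and rose by 0.14 (SE 0.0153, adjusted p = 1.18e-05) in Trim47-/-, an interaction of 0.53 (SE 0.0217, adjusted p = 4.26e-09). Trim47-/- was lower untreated, at -0.23 (SE 0.0153, adjusted p = 8.55e-07) and higher after 5-FU by 0.31 (SE 0.0153, adjusted p = 2.5e-08).

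Ratios of counts within a library do not depend on scaling between libraries. Per 100 counts of Top2a, Plk1 had 6.04 to 6.75 counts in untreated wild type, 7.32 to 7.69 in untreated Trim47-/-, 8.72 to 9.44 in wild type after 5-FU and 5.59 to 6.23 in Trim47-/- after 5-FU. Per 100 counts of Mki67, Plk1 had 5.52 to 5.795, 7.48 to 7.72, 10.6 to 11.4 and 5.62 to 5.98 counts in the same order. The balance of Plk1 to Mki67 was thus highest in wild type after 5-FU, in every library, and overlapped between untreated wild type and Trim47-/- after 5-FU. Hmmr had 8.59 to 9.32 counts per 100 of Top2a in wild type after 5-FU and 5.38 to 5.71 in Trim47-/- after 5-FU. Across the 12 libraries, which fall into 4 groups and share their scaling, log2 levels of Plk1 correlated at r = 0.944 with Hmmr and at -0.919 with Mki67, and those of Ccnb2 at 0.924 with Cdc20, as descriptions without a test.

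Genes whose pattern was most like that of 3 of the members were sought among 9288 genes that averaged 10 CPM or more, by Pearson's r of log2 levels over the 12 libraries. Nearest to Plk1 were Wdtc1 (r = 0.986), Pafah2 (0.985) and Cox15 (0.983). Wdtc1 had mean levels of 64.3 CPM in untreated wild type, 76.2 CPM in untreated Trim47-/-, 96.6 CPM in wild type after 5-FU and 62.0 CPM in Trim47-/- after 5-FU. Nearest to Mki67 were Mef2d (0.996), Mpeg1 (0.995) and Thbs1 (0.993). Mpeg1, a macrophage gene that encodes perforin-2, stood at 133, 71.9, 47.0 and 111 CPM in the same order of groups. Nearest to Ccnb1 were Ankrd27 (0.949), Diaph1 (0.947) and Itga4 (0.943).

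Other genes of mitosis were described through 7 lists of 139 genes in all, none of them among the 10. After 5-FU, 45 of the 139 were higher in Trim47-/- than in wild type, 41 were lower and 53 did not pass, and the median log2 difference was near 0, as over all genes. The share called was 61.9%, against 54.7% of all genes. Untreated, 20 were higher, 18 lower and 101 did not pass, with a median of -0.006, and the share called was 27.3%, against 33% of all genes. Against a 1.2-fold change, 25 of the 139 passed after 5-FU (18%, against 28.5% of all genes) and 3 untreated (Cenpa, Lin54 and Rbl2, or 2.16%, against 9.15%). Those 25 were 6 of the 22 spindle genes called, 5 of 19 kinetochore, 4 of 10 checkpoint, 5 of 10 entry and 5 of 9 transcription factor genes, and 0 of the 7 anaphase-promoting complex and 9 condensin and cohesin genes called. In wild type 39 of the 139 rose and 30 fell after 5-FU (median 0.028), where 25.2% of all genes rose and 25.4% fell. In Trim47-/- 44 rose and 37 fell (median 0.004), against 29.6% and 30.8% of all genes. Among the 139, higher and lower genes were thus close in number, where 6 of the 10 members were lower and 1 higher.

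Of 27 spindle motors and microtubule factors, 8 were higher and 14 lower in Trim47-/- after 5-FU, with a median of -0.14. That was 81.5% called, where 54.7% of all genes were, 27.2% higher and 27.6% lower. Kif2c, a kinesin that takes microtubules apart, stood at 32.3 ± 0.627 CPM in wild type against 23.1 ± 0.372 CPM in Trim47-/- (log2 -0.49, SE 0.0454, adjusted p = 3.63e-06), and Numa1, which anchors spindle poles, at 545 ± 4.35 and 399 ± 4.87 CPM (-0.45, SE 0.0186). Cit, citron kinase of the last step of cell division, was higher (0.315, SE 0.0301), as was Aspm (0.29, SE 0.0347), a protein of spindle poles. Of 14 genes of the spindle checkpoint and passenger complex, 5 were higher and 5 lower (median 0.06), or 71.4% called. The checkpoint kinase Ttk went from 31.7 ± 1.57 to 22.4 ± 0.731 CPM (-0.50, SE 0.0586, adjusted p = 2.37e-05) and Sgo2a, a shugoshin that protects cohesion, was lower, at -0.43 (SE 0.0671). Partners of Aurora B moved the other way, Incenp by 0.35 (SE 0.0378) and Birc5, survivin, by 0.285 (SE 0.036).

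Of 28 kinetochore and centromere genes, 10 were higher and 9 lower after 5-FU (median -0.005). That was 67.9% called, where 54.7% of all genes were, 27.2% higher and 27.6% lower. Pmf1 (0.39, SE 0.0316) and Spc24 (0.32, SE 0.0395) were higher, and Dsn1 (-0.26, SE 0.0492) and Cenpf (-0.20, SE 0.0346) were lower. Of 20 genes of the anaphase-promoting complex and its regulators, 4 were higher and 3 lower (median -0.01), or 35% called. Its subunit gene Cdc23 (-0.33, SE 0.0435) and Fzr1 (-0.335, SE 0.0551), which encodes the activator that takes over from CDC20, were lower, and the subunit genes Anapc5 (0.12, SE 0.0262) and Anapc7 (0.23, SE 0.0503) higher. Of 18 condensin and cohesin genes, 50% were called. Higher were 5, such as Cdca5 (0.29, SE 0.0328), which encodes sororin, and Smc3 (0.115, SE 0.0213), and 4 were lower, such as Stag2 (-0.26, SE 0.0223) and Pds5b (-0.21, SE 0.0356).

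Of 16 mitotic entry regulators, 8 were higher and 2 lower after 5-FU (median 0.055). That was 62.5% called, where 54.7% of all genes were, 27.2% higher and 27.6% lower. Wee1, the kinase that holds CDK1 inactive, stood at 57.3 ± 1.07 CPM in wild type and at 79.5 ± 1.91 CPM in Trim47-/- (0.47, SE 0.0322, adjusted p = 3.03e-07), and Cks1b, a small partner of cyclin-dependent kinases, from 70.5 ± 2.22 to 97.1 ± 2.28 CPM (0.46, SE 0.0417). The phosphatase gene Cdc25b (-0.17, SE 0.0535) and cyclin A2, Ccna2 (-0.09, SE 0.0285), were lower. The call of Cdc25b was lost with only the 6 libraries compared (adjusted p = 0.051) and without replicate 1 of wild type (0.0782) or of Trim47-/- (0.0819) after 5-FU, in a range of 0.0108 to 0.0819 over 17 alternatives, the 1.2-fold test and the stricter threshold set aside. That of Ccna2 was lost without wild-type 5-FU replicate 2 (0.0519) or Trim47-/- 5-FU replicate 1 (0.0587) or 2 (0.0833), in a range of 0.00555 to 0.0833. Of the 10 calls of this list, 5 passed at an adjusted p under 0.01, and 5, all higher, against a 1.2-fold change. Of 16 transcription factors of G2/M genes, 5 were higher and 4 lower (median 0.09), or 56.25% called. Mybl2, which encodes B-MYB, went from 65.7 ± 2.67 to 98.2 ± 1.15 CPM (0.58, SE 0.0367, adjusted p = 1.59e-07), and Rbbp4, of the core shared by DREAM and the B-MYB complex, was higher by 0.41 (SE 0.0296). Lin54, the CHR-binding subunit of DREAM, was higher as well, by 0.83 (SE 0.082). The DREAM pocket proteins were lower, Rbl2 at -0.70 (SE 0.0491) and Rbl1 at -0.48 (SE 0.0408). Both were higher in Trim47-/- untreated, Rbl2 by 0.38 (SE 0.0483) and Rbl1 by 0.19 (SE 0.0401).

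Genes of the preceding steps of the cycle were set beside them. Of 30 G1/S and replication genes, 22 were higher, 0 lower and 8 not passed in Trim47-/- after 5-FU by edgeR's test, against 27.2% of all genes higher and 27.6% lower, with a median of 0.29, among them the helicase subunit gene Mcm5 (0.47, SE 0.0188) and cyclin D2, Ccnd2 (0.51, SE 0.0276). Against a 1.2-fold change 13 of the 30 passed, all higher, where 28.5% of all genes passed in either direction. In wild type 3 of these 30 rose and 17 fell after 5-FU (median -0.17), while 8 of the 10 mitotic members rose. Of all genes there, 25.2% rose and 25.4% fell. In Trim47-/- 15 of the 30 rose and 6 fell (median 0.16), against 29.6% and 30.8% of all genes. The list of cell cycle brakes also holds the p53 regulator Mdm2. Of its 15 measured genes, 4 were higher and 6 lower in Trim47-/- after 5-FU (median -0.10). Btg2 at -1.18 (SE 0.0223) and Btg1 at -0.32 (SE 0.0173), both antiproliferative genes, were lower, as was Cdkn1c at -1.06 (SE 0.0983). Ccng2 (0.415, SE 0.0345) and Mdm2 (1.05, SE 0.0305) were higher.

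**Figure D4:**
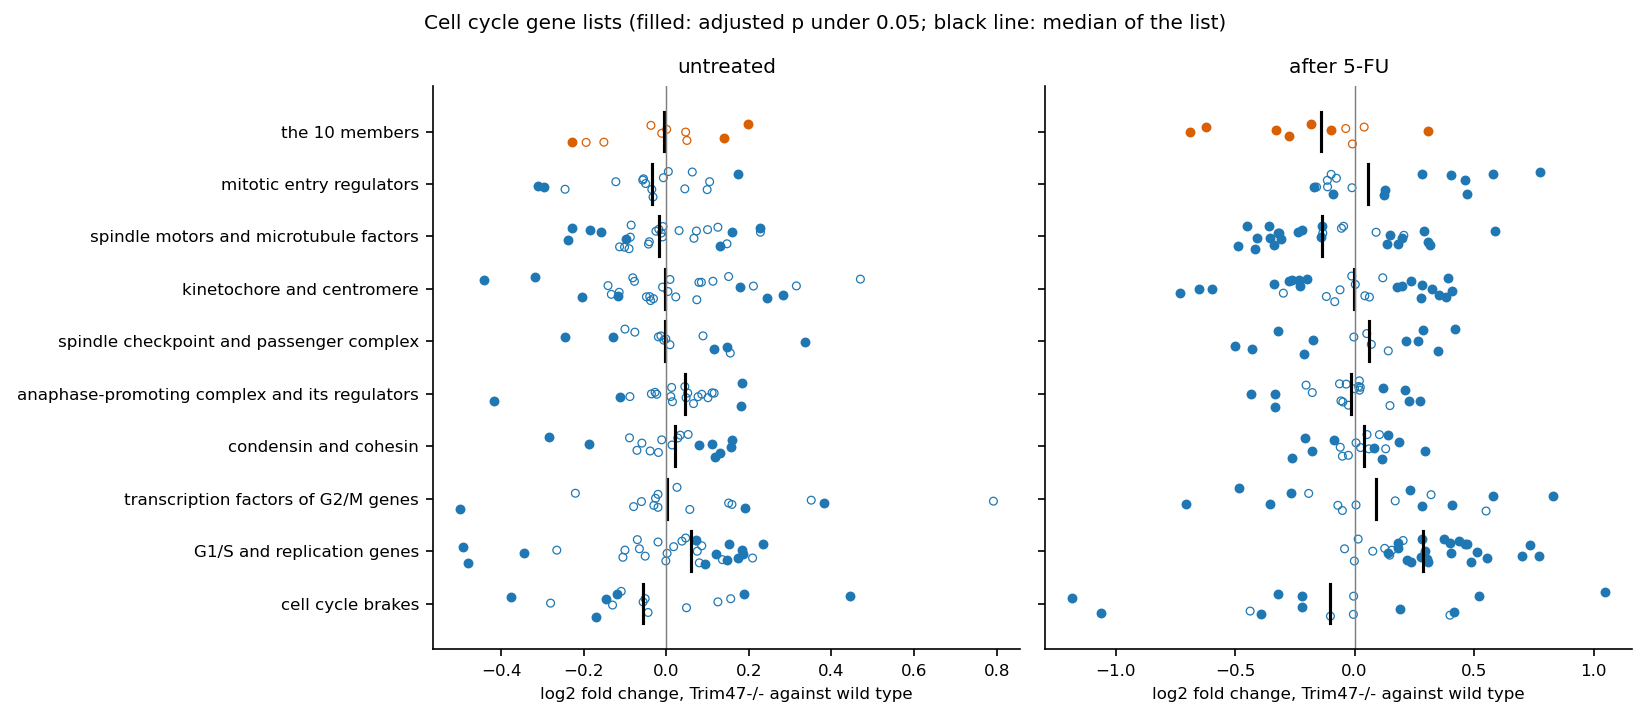
Log2 fold change of Trim47-/- against wild type for each gene of the 10 members (orange) and of 9 cell cycle lists (blue), untreated on the left and after 5-FU on the right on a wider scale, filled where the adjusted p was under 0.05, with each list's median as a black line. After 5-FU the median of the G1/S and replication genes is 0.29 and that of the 10 members -0.14.

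In untreated mice, 33% of all genes were called between genotypes, and the count of each list stands against that share. At an adjusted p under 0.01, 23 of the 38 untreated calls among the 139 genes passed. Among the mitotic entry regulators 1 was higher, Cdc25a (0.17, SE 0.0454), and 2 lower, Cks1b (-0.31, SE 0.0416) and Cks2 (-0.295, SE 0.0399), of 16. Spindle genes counted 3 higher and 5 lower of 27, with Numa1 at 0.23 (SE 0.0185) and Kif18b, a kinesin, at 0.16 (SE 0.0313), against Cit at -0.23 (SE 0.03) and Ckap2l at -0.16 (SE 0.0372). Their 8 calls became 5 without untreated Trim47-/- replicate 1, and 0 against a 1.2-fold change. Of the mitotic genes named in both states, Incenp, Cit, Cks1b and Lin54 were, like Mki67, lower in untreated Trim47-/- and higher after 5-FU. Numa1, Sgo2a, Cdc23, Stag2, Rbl1 and Rbl2 were, like Plk1, higher untreated and lower after 5-FU. Smc3 was higher in both states, by 0.156 untreated and 0.115 after 5-FU. The named genes are picks, and such turns were not counted over the 139 genes.

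Kinetochore genes counted 3 higher and 4 lower of 28 in untreated Trim47-/-. The centromeric histone gene Cenpa was lower, at -0.44 (SE 0.0432, from 129.5 ± 2.08 to 95.3 ± 2.71 CPM), as was Zwint (-0.32, SE 0.0745), and Nsl1 (0.245, SE 0.0687) and Ska1 (0.28, SE 0.0892) were higher. The 7 calls became 4 without untreated Trim47-/- replicate 3, 3 with the DESeq2 test and 1, Cenpa, against a 1.2-fold change. Nsl1 lost its call with the DESeq2 test (adjusted p = 0.0501), with only the 6 libraries compared (0.0799), and without untreated wild-type replicate 3 (0.0699) or untreated Trim47-/- replicate 1 (0.0659), in a range of 0.0052 to 0.0799 over the 17 alternatives. Ska1 lost it in 8 of 17, among them the DESeq2 test (0.0936), the 6 libraries (0.0642), and fits without untreated wild-type replicate 1 (0.0795) or 2 (0.0945), untreated Trim47-/- replicate 1 (0.101) or 2 (0.0809) or wild-type 5-FU replicate 3 (0.0503), in a range of 0.0131 to 0.101.

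Checkpoint and passenger genes counted 3 higher and 2 lower of 14 untreated, Sgo2a at 0.34 (SE 0.0653) and Mad2l1 at 0.15 (SE 0.0362) against Incenp at -0.25 (SE 0.0376) and Cdca8 at -0.13 (SE 0.0402). The 5 calls became 3 without replicate 1 of untreated wild type or of untreated Trim47-/-, with the DESeq2 test and with no filter, and 0 against a 1.2-fold change. Mad2l1 lost its call with the DESeq2 test (adjusted p = 0.0516, in a range of 0.00799 to 0.0516). Cdca8, a subunit of the passenger complex, lost it with no filter (0.0776) and without untreated wild-type replicate 1 (0.1) or 3 (0.108) or untreated Trim47-/- replicate 1 (0.123) or 2 (0.0811), in a range of 0.0128 to 0.123.

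Of the 20 anaphase-promoting complex genes, 2 were higher untreated (Anapc2, 0.18, SE 0.0329, and Cdc23, 0.18, SE 0.0431) and 2 lower (Ube2s, -0.42, SE 0.117, and separase, Espl1, -0.11, SE 0.0354). The 4 calls became 2 without untreated wild-type replicate 3, and 0 against a 1.2-fold change. Ube2s lost its call without untreated wild-type replicate 1 (adjusted p = 0.0744) or 3 (0.0577) or untreated Trim47-/- replicate 2 (0.068), in a range of 0.0034 to 0.0744. Espl1 lost it with no filter (0.0649) and without untreated wild-type replicate 2 (0.0693) or 3 (0.099) or untreated Trim47-/- replicate 1 (0.0776) or 3 (0.125), in a range of 0.0152 to 0.125. Of the 18 condensin and cohesin genes, 6 were higher, among them Smc3 and Stag2 (both 0.16, SE 0.0213 and 0.0222), and 2 lower, the cohesin loader Nipbl (-0.285, SE 0.0268) and Pds5a (-0.19, SE 0.0552). None of the 8 passed against a 1.2-fold change. Pds5a lost its call with no filter (0.0685), with only the 6 libraries compared (0.0537), and without untreated wild-type replicate 1 (0.0595) or 3 (0.0946) or untreated Trim47-/- replicate 1 (0.0642), in a range of 0.0113 to 0.0946.

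Among the 16 transcription factors of G2/M genes, 2 were higher untreated, Rbl1 and Rbl2, and 1 was lower, Lin54, the CHR-binding subunit of DREAM, at -0.50 (SE 0.0816). Of the 30 G1/S and replication genes, 9 were higher, such as Mcm2 (0.18, SE 0.019) and Mcm6 (0.19, SE 0.0236), and 3 lower, such as Cdk6 (-0.48, SE 0.0131) and Orc1 (-0.49, SE 0.0582), and Cdk6 and Orc1 passed against a 1.2-fold change. Of the 15 genes of the brake list, 2 were higher, Cdkn1c (0.44, SE 0.0941) and Ccng1 (0.19, SE 0.0562). The 4 lower ones included Mdm2 (-0.38, SE 0.0301) and Btg1 (-0.12, SE 0.0171), and 1, Mdm2, passed against a 1.2-fold change. Ccng1 lost its call with the DESeq2 test (adjusted p = 0.0504), with only the 6 libraries compared (0.0625), and without untreated wild-type replicate 2 (0.0907), untreated Trim47-/- replicate 1 (0.087) or wild-type 5-FU replicate 3 (0.0546), in a range of 0.0129 to 0.0907.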

How the data were processed

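RNA of 12 samples labelled LT-HSCs was measured by poly-A RNA sequencing with a stranded paired-end kit, per the labels' protocols. Per the file headers, the authors deposited a whole-number count per gene and library, not normalised, and an FPKM value beside it. CASAVA 1.8, HISAT2, StringTie, edgeR and the build GRCm38 are named in the submitters' processing notes, without their roles. Which tool counted the reads, whether it used strand and which annotation it used is not given in the sources used here. The deposited FPKM rests on a length per gene that for Ccnb1 (8046 bases) exceeds the gene itself (7921 bases), so levels were compared between genes as CPM per kb of the GENCODE M21 principal transcript, and FPKM entered no test.

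Counts were fitted with edgeR 4.0.16 in R 4.3.3 (TMM scaling, default low-count filter over the 4 groups, quasi-likelihood test, all 12 libraries in 1 fit with 1 mean per group), with Benjamini-Hochberg adjustment over 16319 genes and a threshold of 0.05. Groups and replicate numbers came from the sample titles. A further edgeR test (glmTreat) was made against a 1.2-fold change. The fit was also run on simulated counts with the same spread setting for every gene, which does not show how the test behaves in these libraries. Alternatives were DESeq2 size factors, the DESeq2 1.42.0 test, no filter, a replicate block, only the 6 libraries compared, an adjusted p under 0.01, the 1.2-fold test and each library left out. The members held 389 or more counts per gene and library, and how far depth limits their precision was not tested.

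The members and lists were chosen with earlier results of these data known. The text names all 10 members; from each list, per genotype comparison, up to 2 higher and 2 lower genes with the smallest p among those that passed; the 3 genes most like Ccnb1, Plk1 and Mki67 (levels plus 0.5 CPM on the log2 scale, unnamed gene models left out); Trim47; and marker genes near 0. Ccnb1-ps, Ccnb2-ps and Elovl1 were added for their overlap or likeness in sequence. Markers of 9 cell types were summed. Tables were handled in Python 3.11.15 with pandas 2.3.3 and drawn with matplotlib 3.10.9.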

Additional observations from a re-analysis of the deposited data

Results flagged for a closer look

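The response to 5-FU differed between the genotypes by the interaction test for 6 of the 10 mitotic genes, given as the log2 response in Trim47-/- minus that in wild type. It was -0.82 for Plk1 and -0.74 for Hmmr, which rose in wild type and fell in Trim47-/-. For Mki67, which fell in wild type and rose in Trim47-/-, it was 0.53. It was -0.24 for Ccnb2 and -0.23 for Cdc20, which rose in both genotypes, and -0.28 for Aurka, whose call was lost in 9 of its alternatives. With 54.9% of all genes called in this test, such a difference was common in these libraries.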

How the results depend on the processing

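Of 940 member values under an alternative, 874 kept their direction and their side of the threshold, 45 lost and 4 gained a call, and 17 changed sign, all of them of differences that did not pass. With the test against a 1.2-fold change, 0 of 10 members passed between genotypes untreated, 3 after 5-FU, 1 for 5-FU in Trim47-/- and 3 for the interaction. Of all genes 5392 passed untreated between genotypes, 3391 at an adjusted p under 0.01 and 1493 against 1.2-fold. After 5-FU 8933 passed and 4651 against 1.2-fold, for 5-FU in wild type 8260 and 4058, and in Trim47-/- 9868 and 5871. Aurka untreated between genotypes was -0.016 with DESeq2 size factors and with the DESeq2 test, -0.022 with only the 6 libraries compared, and -0.067 to 0.044 over fits that left out 1 library. The interaction of Top2a was -0.014 with no filter on low counts. Over fits that left out 1 library, the genotype difference of Bub1 ran from -0.035 to 0.021 untreated and from -0.093 to 0.023 after 5-FU, that of Aurkb after 5-FU from -0.021 to 0.098 and that of Top2a after 5-FU from -0.023 to 0.003, the response of Aurkb in wild type from -0.129 to 0.01, and the interaction of Bub1 from -0.085 to 0.031. With the replicate block, members called numbered 3, 7, 9, 8 and 6, as without it. Same-numbered libraries deviated together at r = -0.117 to 0.063, which cannot tell whether they share more than a number. Among the list genes named, Ska1 (adjusted p = 0.052) and Espl1 (0.0529) lost their untreated call with the block. The interaction was not fitted on 6 libraries, since it needs all 4 groups. Among all genes, no other scaling moved the share of higher calls by over 10 percentage points. The fewest counts were those of Ccnb1 (389 or more) and Aurka (447 or more), yet Aurkb (806 or more) had the widest spread between libraries, up to 9.36%. How far depth limits each member was not tested. The cause of the changed calls was not tested.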
